A study of Mus musculus with 8 samples.

Results

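The 10 genes described here are markers of injured kidney tubule: Havcr1, Lcn2, Krt8, Krt18, Krt20, Vcam1, Spp1, Clu, Sox9 and Timp1. They were taken by symbol from a table of 49315 Ensembl gene IDs, and all 10 were found and passed the filter on low counts. Messenger RNA was sequenced from 8 frozen mouse kidney samples, 4 controls and 4 conditional knockouts of Kdm1a, which encodes the histone demethylase LSD1. The labels call the groups Control and Conditional Knockout. They give neither the Cre driver, the strain, the age nor the sex of the animals, so the cells in which Kdm1a was deleted are not known here. The extraction protocol calls the controls wild type. Nothing in the labels says whether the 4 samples of a group are 4 animals, so p values measure the spread between these samples.

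Injured tubule cells lose functions of the mature nephron and switch on a set of genes that are low in healthy adult tubule. Some encode secreted or shed proteins that are measured in urine or blood as signs of acute kidney injury, namely Havcr1 (KIM-1), Lcn2 (NGAL), Timp1, Spp1 (osteopontin) and Clu (clusterin). Others encode the adhesion molecule Vcam1, the simple-epithelium keratins Krt8, Krt18 and Krt20, and Sox9, a transcription factor of the developing kidney and of regenerating tubule. Several are also made in healthy kidney: Spp1 in the thick ascending limb and distal nephron, Krt8 and Krt18 in collecting duct, and Krt20 in urothelium.

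The markers did not move together. Spp1, the osteopontin gene, was 5.67-fold lower in the knockouts (95% interval 2.08 to 15.5), and Timp1, an inhibitor of matrix metalloproteinases, was 1.36-fold higher (1.12 to 1.65). These were the 2 of 10 markers that passed an adjusted p of 0.05 in edgeR, 1 higher and 1 lower. Over all 18485 genes tested 14.9% passed, 6.61% higher and 8.27% lower, so the markers' share is near that background. Of the 8 markers that did not pass, 4 had positive and 4 had negative log2 fold changes. The median log2 fold change was 0.09 over the 10 markers and 0.00 over all genes tested. Levels below are CPM, the counts of a gene per 1000000 in that library after TMM scaling, and a gene is said to pass, rise or fall where the adjusted p of edgeR's quasi-likelihood test over all genes is under 0.05. Positions are those of the deposited table, on GRCm38.

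**Figure D1:**
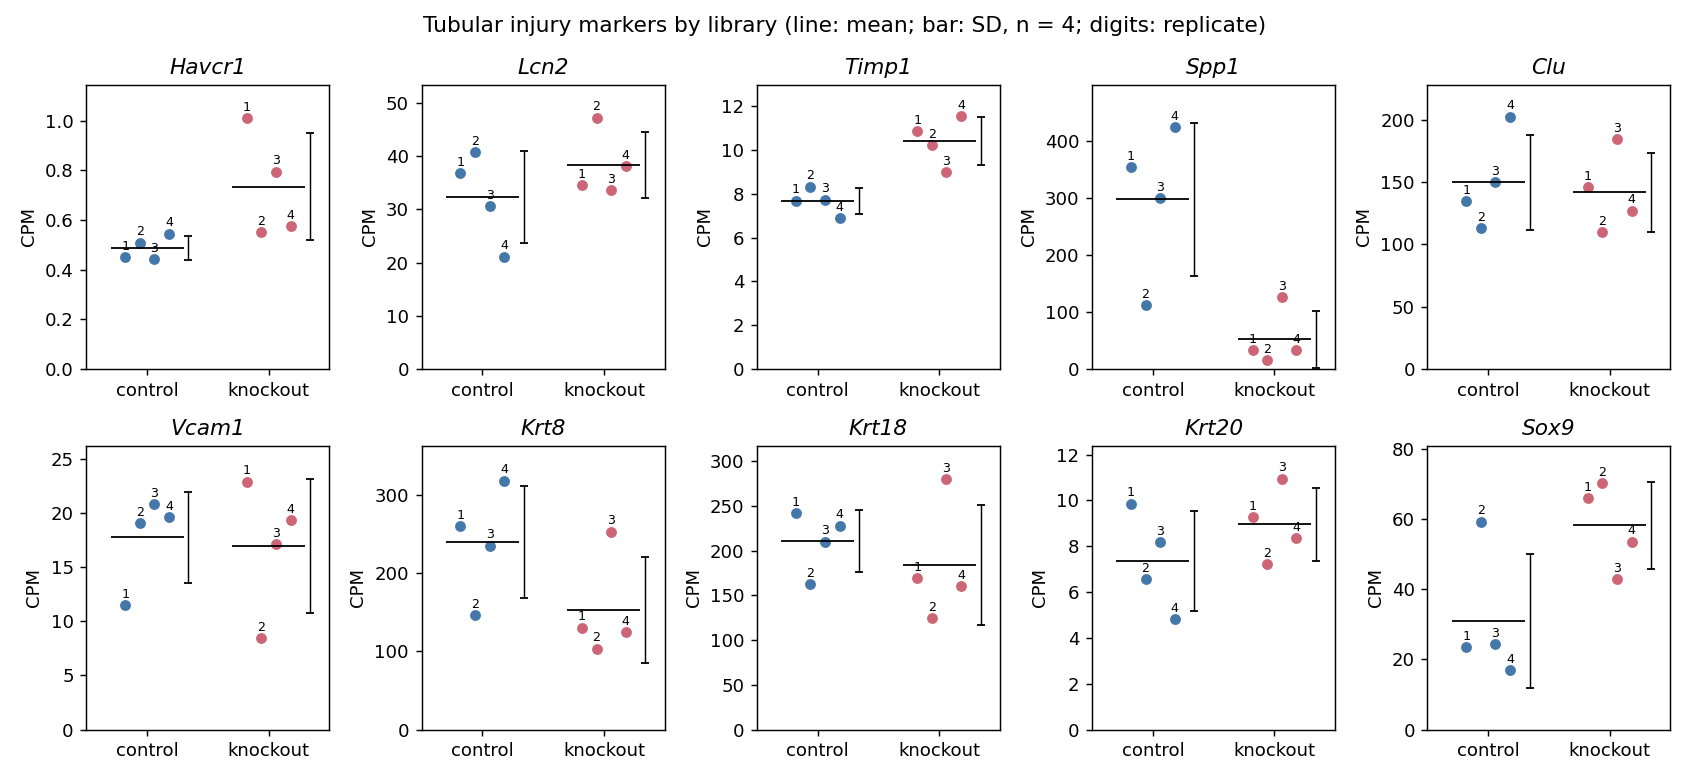
CPM of each marker in the 4 control and 4 knockout libraries; each point is a library with its replicate number, the line is the group mean and the bar is the SD. Timp1 and Havcr1 are the markers whose groups do not overlap, and Spp1 is lowest in knockout replicate 2 at 16.0 CPM and highest in control replicate 4 at 426 CPM.

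Libraries held 19524945 to 28544511 counts, so 1 count stood for 0.0346 to 0.0501 CPM. Kdm1a itself was at 110 to 120 CPM in controls and 90.8 to 95.2 CPM in knockouts, with no overlap (log2 fold change −0.27, SE 0.05, adjusted p 0.0194). Its call was lost without control replicate 1 or 3 or knockout replicate 1, 2 or 4, at adjusted p values of up to 0.0765. The call held in 13 of 19 alternative fits, and not every loss came from leaving out 1 library. Control replicate 2 was the lowest control and knockout replicate 3 the highest knockout in the summed proximal tubule and thick ascending limb genes. The search for outlying libraries, given at the end, flagged neither in the proximal tubule sum. The summed level of 10 proximal tubule genes was 421 CPM in control replicate 2 against 984 to 1914 CPM in the other controls, and 306 CPM in knockout replicate 3 against 69.7 to 149 CPM in the other knockouts. Knockout replicates 1 and 4 and control replicate 4 held adrenal transcripts, with 9 adrenal genes summing to 1956, 266 and 108 CPM against 13.8 to 19.97 CPM elsewhere. A gonad list of 10 genes summed to 57.5 CPM in control replicate 2 and 53.4 CPM in knockout replicate 1, against 13.9 to 27.1 CPM elsewhere, but the 2 libraries were unlike. Control replicate 2 held germ cell genes, with Dazl at 7.59, Mael at 8.80 and Sycp3 at 10.9 CPM, which were at 0.169, 0.126 and 0.379 CPM in knockout replicate 1. In knockout replicate 1 the inhibin gene Inha, which adrenal cortex also makes, gave 49.7 of the 53.4 CPM. Y-linked transcripts were present in 3 controls and 2 knockouts and missing from 1 and 2. In whole tissue, fewer cells of a type and less RNA per cell cannot be told apart.

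Compared per kilobase of exon, the markers spanned a wide range. In controls the order of mean levels was Spp1 at 181 CPM per kb, Krt18 at 150, Krt8 at 133, Clu at 43.6, Lcn2 at 12.3, Timp1 at 8.63, Sox9 at 7.49, Krt20 at 3.82, Vcam1 at 1.9996 and Havcr1 at 0.211 CPM per kb. The ranges of Spp1, Krt18 and Krt8 overlapped one another, as did those of Lcn2, Timp1 and Sox9. In knockouts Krt18 came first at 131 CPM per kb, followed by Krt8 at 84.7, Clu at 41.2 and Spp1 at 31.8 CPM per kb. Sox9, at 14.1 CPM per kb, then lay beside Lcn2 at 14.6 and Timp1 at 11.7 CPM per kb, with overlapping ranges. Havcr1 was the lowest of the 10 in both groups.

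Havcr1 (ENSMUSG00000040405, chromosome 11, 46735080 to 46779578, plus strand) encodes KIM-1, a receptor for dying cells on injured proximal tubule. It was barely detected. Controls had 11, 11, 11 and 12 counts and knockouts 24, 11, 23 and 16 counts for replicates 1 to 4. These counts correspond to 0.450, 0.509, 0.443 and 0.545 CPM in controls and 1.01, 0.551, 0.795 and 0.575 CPM in knockouts. The groups do not overlap, but knockout replicate 2 and control replicate 4 differ by less than the value of 1 count. Non-overlap with the knockouts higher was seen in 2 of 10 markers, Havcr1 and Timp1, and in 9.28% of all genes tested. None of the 10 (0) had all knockouts lower, against 9.60% of all genes, and 18.9% of all genes were apart in either direction. The group means were 0.487 ± 0.0486 and 0.733 ± 0.216 CPM (SD, n = 4), with 95% Poisson intervals for counting error alone of 0.355 to 0.652 and 0.576 to 0.920 CPM. Havcr1 had a log2 fold change of 0.59 (SE 0.29, 95% interval −0.06 to 1.24), with an adjusted p of 0.174, and it did not pass under any of the 18 alternatives that tested it (the filter at a mean of 1 CPM removed it).

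Lcn2 (ENSMUSG00000026822, chromosome 2, 32384633 to 32388252, minus strand), whose product NGAL binds iron-carrying siderophores, was well expressed in every library. Controls had 36.8, 40.7, 30.6 and 21.1 CPM, and knockouts 34.5, 47.2, 33.6 and 38.1 CPM. The groups overlap, with control replicate 4 the lowest library and knockout replicate 2 the highest. Its log2 fold change of 0.25 had an adjusted p of 0.384 (SE 0.19, 95% interval −0.19 to 0.69), so a rise of more than 1.61-fold lies outside the interval.

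Timp1 (ENSMUSG00000001131, chromosome X, 20870166 to 20874735, plus strand) was the marker that rose. Controls had 7.69, 8.33, 7.74 and 6.90 CPM, and knockouts 10.9, 10.2, 8.98 and 11.6 CPM. Every knockout lies above every control, and knockout replicate 3 is the nearest to them. The means were 7.67 ± 0.588 and 10.4 ± 1.0981 CPM (SD, n = 4). On the log2 scale the difference was 0.44 (SE 0.12, adjusted p 0.0451). The rise passed by a small margin. Leaving out control replicate 1, 3 or 4 gave adjusted p values of 0.103, 0.115 and 0.125, and leaving out knockout replicate 1, 2 or 4 gave 0.106, 0.0934 and 0.120. It passed without control replicate 2 (0.0226) and without knockout replicate 3 (0.0309). These are the highest control and the lowest knockout, so leaving out either was bound to enlarge the rise. With all 8 libraries it was lost under the replicate block (0.0828), no filter on low counts (0.0948), the Y-linked covariate (0.0589) and the adrenal covariate (0.114), and among the libraries with Y-linked transcripts it was lost too (0.148). It passed in 8 of 19 alternatives. These 8 include the tables per library, which hold the same counts, and the fits without control replicate 2, knockout replicate 3 or both. Timp1 lies within an intron of Syn1, on the opposite strand, and shares 0 exon bases with it.

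Spp1 (ENSMUSG00000029304, chromosome 5, 104435118 to 104441050, plus strand) encodes osteopontin, a secreted phosphoprotein that binds integrins and CD44. It was the most abundant marker per length in controls and the one with the largest change. Controls had 354, 112, 300.2 and 426 CPM, and knockouts 33.5, 16.0, 127 and 33.4 CPM. Knockout replicates 1, 2 and 4 lie far below every control, control replicate 2 is the lowest control, and knockout replicate 3 lies above it, so the groups overlap. The means were 298 ± 134 and 52.4 ± 50.2 CPM (SD, n = 4). On the log2 scale Spp1 differed by −2.50 (SE 0.64, adjusted p 0.0348). Without control replicate 2 it was −2.78 (adjusted p 0.00846), and without knockout replicate 3 it was −3.40 (0.0123). With both left out it was −3.70 (2.42e-04), where the groups had to come apart and the fold had to grow, since these were the lowest control and the highest knockout. The call was lost without control replicate 1, 3 or 4 (adjusted p 0.0882, 0.0867 and 0.0889) and without knockout replicate 1, 2 or 4 (0.0933, 0.0750 and 0.105), with the adrenal covariate (0.0778) and among the libraries with Y-linked transcripts (0.0858). The direction was the same in every fit. Gm42793 shares 309 exon bases with Spp1 on the same strand in the GENCODE M21 annotation and had 0 to 17 counts per library.

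Spp1 followed the markers of the mature nephron from library to library. The summed level of 5 thick ascending limb genes was 527, 202, 875 and 986 CPM in controls and 31.1, 10.2, 276 and 48.3 CPM in knockouts. All 5 had negative log2 fold changes and 3 of them fell (Umod, Kcnj1 and Cldn16). All 10 genes of the proximal tubule list fell, with a median log2 fold change of −3.07 against 0.00 over all genes. Of all genes tested, 8.27% fell. Without control replicate 1, 3 or 4 the fall passed in 4, 4 and 5 of the 10 proximal tubule genes, and without knockout replicate 1, 2 or 4 in 3, 7 and 1. In each of those 6 fits 0 of the 5 thick limb genes passed. Few genes passed at all in them, 0.819% to 3.65% of all genes. Control replicate 2 was the lowest control and knockout replicate 3 the highest knockout for Spp1 and for both sums. The part of thick limb or proximal tubule RNA in the fall of Spp1 was not tested.

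**Figure D2:**
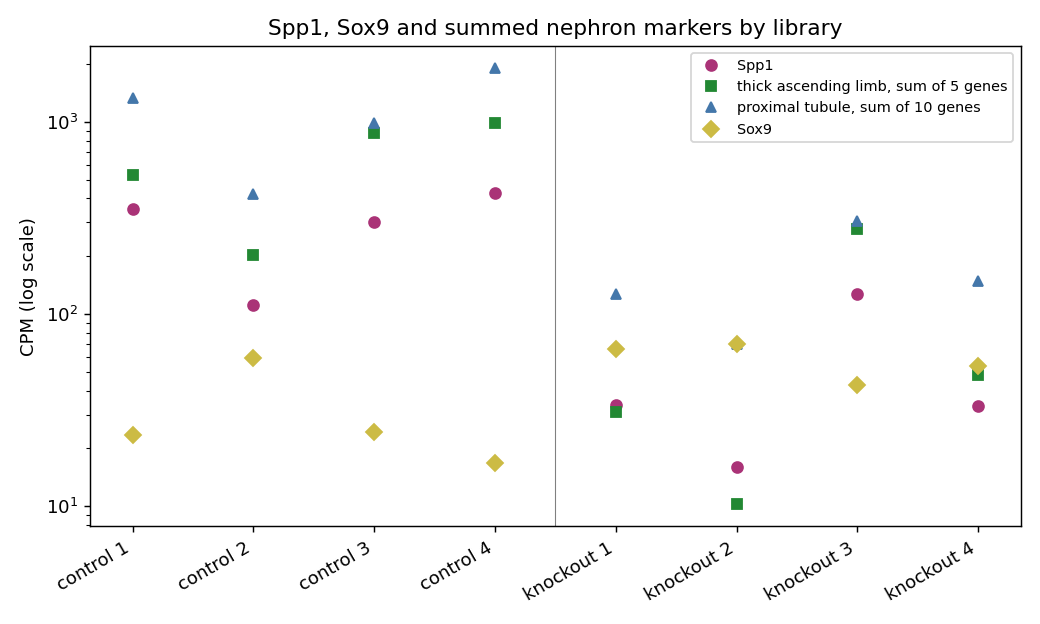
CPM on a log scale in each of the 8 libraries for Spp1, Sox9, the sum of 5 thick ascending limb genes and the sum of 10 proximal tubule genes; each point is a library. Control replicate 2 and knockout replicate 3 lie close together for Spp1 (112 and 127 CPM), and Sox9 is highest in knockout replicate 2, where Spp1 is lowest and where the Sox9 symbol covers that of the proximal tubule sum (70.2 and 69.7 CPM).

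The 250 bases before the first of 2 RefSeq start sites of Spp1 and before the 1 of Timp1 (GRCm38.p6) are shown because these were the markers that passed. Capitals mark matches to any of 5 motifs searched on both strands: TGAGTCA for AP-1, CACGTG for an E-box, ACAATGG for Sox factors, TATAAA for a TATA box, and the NF-kB motif. For Spp1 the window shown is chr5:104434861-104435110 and for Timp1 it is chrX:20869916-20870165, both on the plus strand. The second Spp1 window, chr5:104435942-104436191, holds 0 matches and is not shown.
Spp1: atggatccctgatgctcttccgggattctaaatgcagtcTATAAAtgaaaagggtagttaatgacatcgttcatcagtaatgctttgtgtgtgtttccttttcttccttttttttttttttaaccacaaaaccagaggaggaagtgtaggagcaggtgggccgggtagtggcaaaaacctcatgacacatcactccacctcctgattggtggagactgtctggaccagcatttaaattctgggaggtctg
Timp1: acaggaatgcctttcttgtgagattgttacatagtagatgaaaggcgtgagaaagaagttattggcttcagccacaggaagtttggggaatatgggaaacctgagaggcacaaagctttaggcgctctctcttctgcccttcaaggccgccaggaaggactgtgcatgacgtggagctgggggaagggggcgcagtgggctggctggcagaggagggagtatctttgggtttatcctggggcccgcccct
The Spp1 window shown holds 1 match, a TATAAA that begins 211 bases before the start site, and the Timp1 window holds 0. Windows were found for 7 of 10 markers, 10 windows in all, and those of Vcam1, Clu and Sox9 were not analysed here. The only other match was a TATAAA in the Krt20 window, 29 bases before its start. Over 32851 RefSeq windows of the same length, 4.46% held the AP-1 motif, 1.41% the NF-kB motif, 6.02% the E-box, 3.02% the Sox motif and 12.4% the TATA box. The SRF motif, searched by a loose pattern, was in 67.1% of all windows and is not marked.

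Clu (ENSMUSG00000022037, chromosome 14, 65968483 to 65981548, plus strand) encodes clusterin, a secreted chaperone. Controls had 134, 113, 150 and 202 CPM, and knockouts 146, 110, 184 and 127 CPM. The groups cover nearly the same range. Clu had a log2 fold change of −0.08 (SE 0.20, 95% interval −0.53 to 0.37, adjusted p 0.799), and its sign turned without control replicate 4 (0.09) or knockout replicate 2 (0.02).

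Vcam1 (ENSMUSG00000027962, chromosome 3, 116109949 to 116129688, minus strand), an adhesion molecule that holds leukocytes through alpha-4 integrin, also overlapped. Controls had 11.5, 19.0, 20.8 and 19.6 CPM, and knockouts 22.9, 8.42, 17.1 and 19.3 CPM. One library of each group was low, control replicate 1 and knockout replicate 2, and the other 6 lay between 17.1 and 22.9 CPM. Vcam1 had a log2 fold change of −0.06 (SE 0.29, 95% interval −0.72 to 0.60, adjusted p 0.892). It was 0.16 without knockout replicate 2 and 0.02 without control replicate 3. Gm43109 shares 61 exon bases with Vcam1 on the opposite strand and had 0 to 2 counts per library.

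Krt8 and Krt18 encode the type II and type I keratins that pair in the filaments of simple epithelia, and their genes lie 23873 bases apart on chromosome 15. Krt8 (ENSMUSG00000049382, 101996711 to 102004342, minus strand) was at 260.0, 146, 235 and 318 CPM in controls and at 130.4, 104, 253 and 125 CPM in knockouts. Krt18 (ENSMUSG00000023043, 102028216 to 102032026, plus strand) was at 241, 163, 209.9 and 228 CPM in controls and at 169, 125, 280.1 and 160.5 CPM in knockouts. For both genes knockout replicate 3 was the highest knockout and control replicate 2 the lowest control, and the groups overlap. The log2 fold changes were −0.65 for Krt8 (SE 0.31, 95% interval −1.34 to 0.04, adjusted p 0.165) and −0.20 for Krt18 (SE 0.23, 95% interval −0.72 to 0.32, adjusted p 0.566).

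The keratin values depended on those libraries, whose removal was bound to make the fold changes more negative. Krt8 passed without control replicate 2 (log2 fold change −0.83, adjusted p 0.0476) and without knockout replicate 3 (−0.98, adjusted p 0.0288). With both left out, Krt8 was at −1.18 (adjusted p 4.88e-04) and Krt18 at −0.58 (adjusted p 0.00474). Krt8 also passed with limma-voom and sample weights (−0.89, adjusted p 0.00760). Gm36026 shares 101 exon bases with Krt8 on the opposite strand, and its own level was not analysed here.

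The ratio of Krt8 to Krt18, per kilobase of exon, was 0.836, 0.697, 0.869 and 1.08 in controls and 0.598, 0.645, 0.700 and 0.604 in knockouts. Control replicate 2 falls just below knockout replicate 3, and otherwise every knockout is lower than every control. The means were 0.871 ± 0.160 and 0.637 ± 0.0473 (SD, n = 4), a log2 difference of −0.44. The exact permutation p, two-sided and taken over all 70 ways to divide the libraries, was 0.0571, where the smallest possible value is 0.0286. The difference did not pass.

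**Figure D3:**
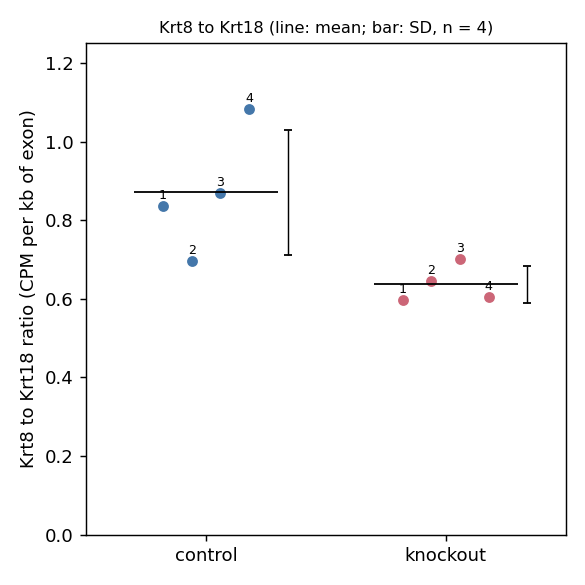
Ratio of Krt8 to Krt18, each in CPM per kilobase of exon, in each library; lines are group means and bars SD. The 4 knockouts lie between 0.598 and 0.700 and the controls between 0.697 and 1.08.

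Krt20 (ENSMUSG00000035775, chromosome 11, 99428403 to 99438150, minus strand), a keratin of the urothelial surface that also appears in injured tubule, was low. Controls had 9.86, 6.57, 8.18 and 4.81 CPM, and knockouts 9.27, 7.22, 11.0 and 8.37 CPM. The knockouts lie mostly within the range of the controls. Krt20 had a log2 fold change of 0.28 (SE 0.23, 95% interval −0.23 to 0.80, adjusted p 0.392). A urothelium list of 8 genes, which includes the uroplakins, summed to 99.998 to 291 CPM in controls and 118 to 217 CPM in knockouts, and 0 of 8 passed (1 had an unadjusted p under 0.05 in edgeR, and DESeq2 called 1). Of these genes 5 passed with limma-voom, 2 with the replicate block, 1 without control replicate 2 and 6 without control replicate 2 and knockout replicate 3. The shares of all genes in these fits were 44.9%, 17.5%, 37.4% and 42.7%. Control replicate 1 was highest in that sum among controls, and knockout replicate 3 among knockouts, as for Krt20. The lowest libraries differed: control replicate 4 and knockout replicate 2 for Krt20, but control replicate 2 and knockout replicate 1 for the sum.

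Sox9 (ENSMUSG00000000567, chromosome 11, 112782224 to 112787760, plus strand) had the largest positive value of the 10. Controls had 23.6, 59.2, 24.3 and 16.8 CPM, and knockouts 66.0, 70.2, 42.8 and 53.5 CPM. Control replicate 2 lies among the knockouts, and the other 3 controls lie below all 4. The means were 30.98 ± 19.1 and 58.1 ± 12.4 CPM (SD, n = 4). Sox9 had a log2 fold change of 0.91 (SE 0.36, 95% interval 0.10 to 1.72), with an unadjusted p of 0.0317 and an adjusted p of 0.109, so Sox9 did not pass over all genes. Without control replicate 2 it passed, at 1.43 (adjusted p 0.00147), and with knockout replicate 3 left out as well it was at 1.54 (4.20e-04). It also passed among the 5 libraries with Y-linked transcripts, 3 controls and 2 knockouts (1.39, adjusted p 0.0215), with limma-voom and sample weights (1.27, 0.00142), and with the replicate number as a block (1.05, 0.0250). It did not pass in the other 14 of 19 alternatives, which include DESeq2 (adjusted p 0.114), the Y-linked covariate (0.0777), the adrenal covariate (0.186) and leaving out knockout replicate 3 (0.0914). Control replicate 2 is the highest control, so leaving it out was bound to widen the difference. It lacks Y-linked transcripts, so the fit among the libraries with them leaves it out too and is no separate check. Sox9 ran against the nephron markers: in each group it was highest in the library with the lowest proximal tubule sum, control replicate 2 and knockout replicate 2. The part of nephron RNA in its level was not tested.

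**Figure D4:**
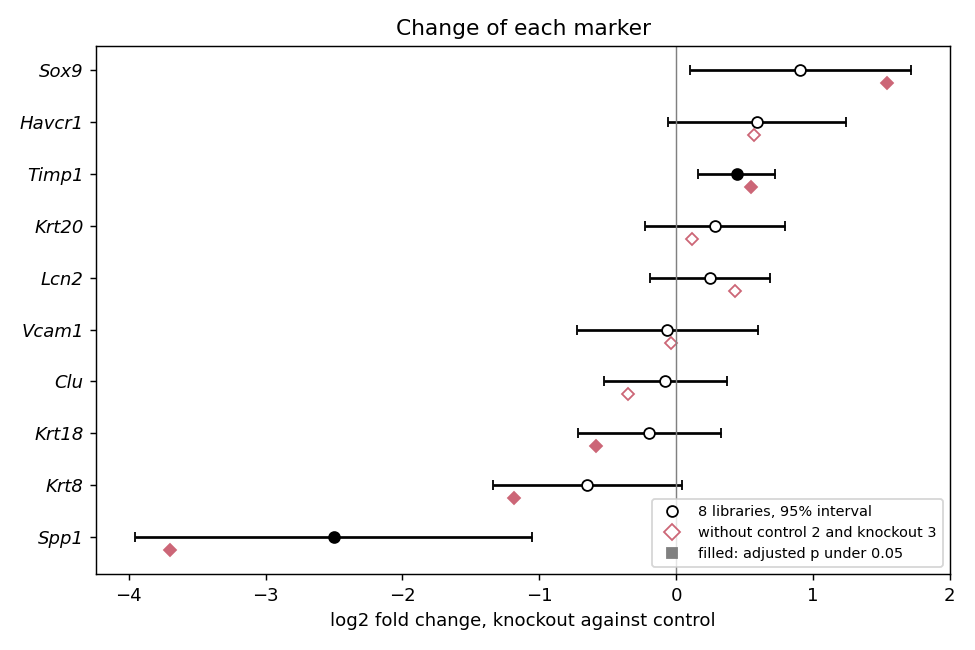
Log2 fold change of each marker, knockout against control, with its 95% interval over 8 libraries (circles), and the log2 fold change alone without control replicate 2 and knockout replicate 3 (diamonds); filled symbols passed an adjusted p of 0.05. Spp1 and Timp1 are filled in both, and Sox9, Krt8 and Krt18 are filled only without those libraries.

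With control replicate 2 and knockout replicate 3 left out together, 5 of 10 markers passed: Sox9 and Timp1 higher, and Spp1, Krt8 and Krt18 lower. In that fit 42.7% of all genes passed, 20.5% higher and 22.2% lower, so this count too is near its background. Without control replicate 2 alone, 4 markers passed (2 higher and 2 lower) where 37.4% of all genes did, 18.4% higher and 19.0% lower. Without knockout replicate 3 alone, 3 passed (Timp1 higher, Spp1 and Krt8 lower) where 17.0% did, 7.74% higher and 9.30% lower. Leaving out any other library left 0 markers. In those fits few genes passed at all: 2.86%, 2.0% and 3.65% without control replicate 1, 3 and 4, and 3.0%, 3.15% and 0.819% without knockout replicate 1, 2 and 4. Other ways of fitting all 8 libraries also moved the background. It was 14.9% with DESeq2 size factors or the tables per library, 17.3% with a filter at a mean of 1 CPM, 23.0% with DESeq2 and 17.5% with the replicate block. With limma-voom it was 44.9% (22.0% higher, 22.9% lower), and 4 markers passed. With no filter it was 7.36% (2.85% higher, 4.51% lower), and with the Y-linked covariate 11.7% (5.89% and 5.84%), and in both fits Spp1 alone passed. With the adrenal covariate it was 5.40% (2.80% and 2.60%) and 0 markers passed. Among the libraries with Y-linked transcripts it was 16.7% (8.85% and 7.84%), and Sox9 alone passed. The markers differed in which library was extreme. Knockout replicate 2 was the lowest knockout for 7 of 10 markers and the highest for Lcn2 and Sox9. Knockout replicate 3 was the highest knockout for 5 of 10, namely Krt8, Krt18, Krt20, Spp1 and Clu. Control replicate 2 was the lowest control for Krt8, Krt18, Spp1 and Clu, and the highest for Lcn2, Sox9 and Timp1.

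**Figure D5:**
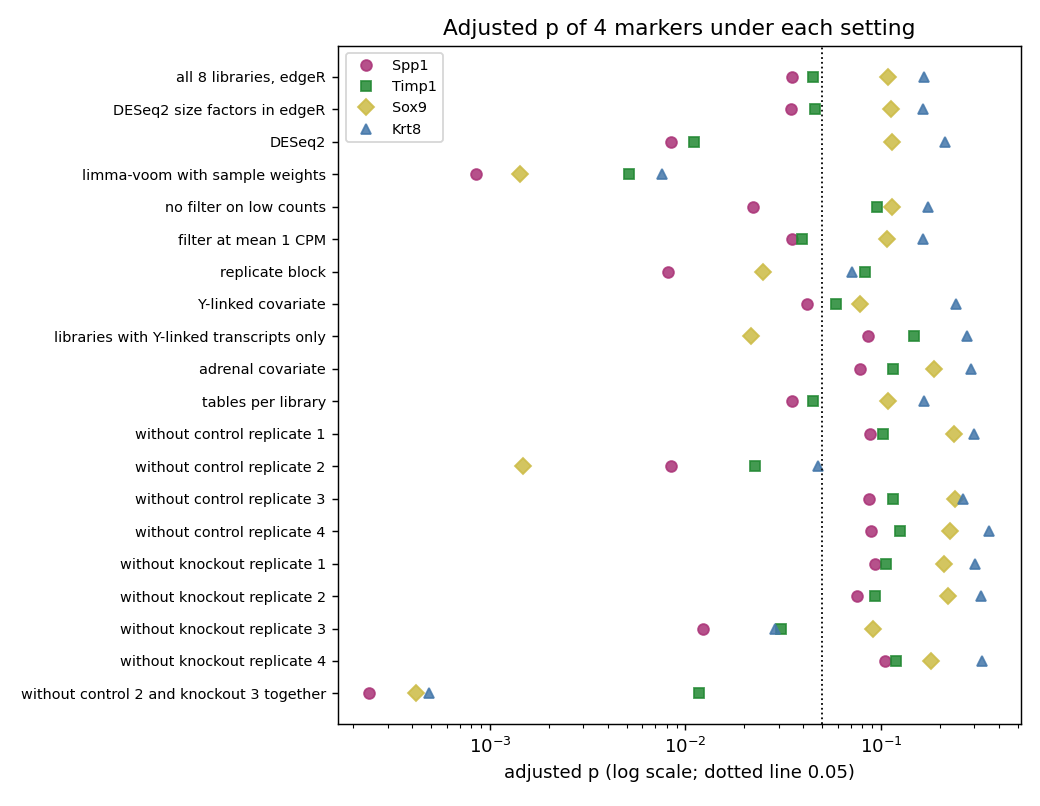
Adjusted p on a log scale for Spp1, Timp1, Sox9 and Krt8 under each way of fitting; the dotted line is 0.05. Spp1 and Timp1 lie near the line with all 8 libraries (0.0348 and 0.0451), and without control replicate 2 and knockout replicate 3 all 4 lie below it.

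Other genes linked to tubular injury and repair were also mixed. Of 30 such genes, 29 were tested, 3 rose, 1 fell and 25 did not pass, with a median log2 fold change of −0.13. Of all genes tested, 6.61% rose and 8.27% fell. The rises were those of Vim, the mesenchymal filament gene, from 593 ± 20.6 to 739.8 ± 62.4 CPM (0.32 on the log2 scale, SE 0.07, adjusted p 0.0234), of the complement gene C3, from 9.56 ± 4.499 to 34.2 ± 17.2 CPM (1.83, SE 0.43, 0.0286), and of the scaffold gene Akap12, from 222 ± 16.4 to 285 ± 32.8 CPM (0.36, SE 0.09, 0.0344). Cryab, a small heat shock protein gene, fell from 52.5 ± 20.5 to 15.6 ± 8.17 CPM (−1.74, SE 0.38, 0.0244). All 4 knockouts lay above all 4 controls for Vim, C3 and Akap12, while for Cryab the groups overlapped. Of the 29 tested, 4 had all knockouts higher and 1 had all knockouts lower, against 9.28% and 9.60% of all genes. No gene of the list passed without control replicate 1, 3 or 4 or knockout replicate 2 or 4 (0 each). Of all genes, 0.819% to 3.65% passed in those fits. Vim, C3, Akap12 and Cryab had adjusted p values of 0.0568 to 0.0926 in those fits. The counts were 2 without knockout replicate 1, 10 without control replicate 2, 9 without knockout replicate 3 and 17 without both. Of all genes, 3.0%, 37.4%, 17.0% and 42.7% passed in these fits. They were 9 with DESeq2, 15 with limma-voom and 10 with the replicate block, where 23.0%, 44.9% and 17.5% of all genes passed. Cxcl1 was not tested, with 3 to 8 counts per library.

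Timp1 was set beside its family and the metalloproteinases. Of 10 such genes, 9 were tested, 3 rose and none fell, with a median of 0.13. Of all genes tested, 6.61% rose and 8.27% fell. Mmp2 rose from 167 ± 13.3 to 222 ± 20.6 CPM (0.41 on the log2 scale, SE 0.09, adjusted p 0.0217), and Mmp14, the membrane protease that activates Mmp2, from 179 ± 36.0 to 259 ± 17.7 CPM (0.54, SE 0.13, 0.0288). Timp2, an inhibitor that also takes part in that activation, rose from 204 ± 18.6 to 250.1 ± 21.0 CPM (0.30, SE 0.09, 0.0475). Timp3 was at 167 ± 48.1 and 105 ± 18.4 CPM (−0.67, SE 0.21) and did not pass (0.0612). No gene passed without control replicate 1, 3 or 4 or knockout replicate 2 or 4 (0 each), where 0.819% to 3.65% of all genes did. Without knockout replicate 1, knockout replicate 3 and control replicate 2, 1, 2 and 5 genes passed, against 3.0%, 17.0% and 37.4% of all genes. Limma-voom called 5, and 44.9% of all genes. Mmp2 is made by stromal cells: the fibroblast and stroma list summed to 2277 to 2989 CPM in controls and 2394 to 4089 CPM in knockouts, 2 of its 7 genes rose and 0 fell, and the part of stroma in these rises was not tested.

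None of the 7 other keratins tested passed (0 of 7 in edgeR, with 4 at an unadjusted p under 0.05). DESeq2 called 2, limma-voom 5 and the replicate block 3, and 3 passed without control replicate 2, 2 without knockout replicate 3 and 4 without both. Of all genes, 14.9% passed in edgeR with all libraries and 17.0% to 44.9% in those other fits. Krt7, another keratin of simple epithelia, was at 187 ± 71.8 CPM in controls and 89.8 ± 54.8 CPM in knockouts (−1.06 on the log2 scale, SE 0.42, adjusted p 0.111). The basal-cell keratins Krt5 and Krt15 had positive values of 1.12 (adjusted p 0.0605) and 0.81 (0.0523), and Krt23 one of 0.40 (0.114).

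Of 16 receptors and relatives of the markers, 14 were tested, 1 rose and 2 fell, with a median of 0.07. Of all genes tested, 6.61% rose and 8.27% fell. Itgb3, the beta-3 integrin that binds osteopontin, rose from 5.09 ± 1.09 to 8.83 ± 1.97 CPM (0.79 on the log2 scale, SE 0.22, adjusted p 0.0411). Lrp2, or megalin, also on the proximal tubule list, which takes up filtered proteins such as NGAL in the proximal tubule, fell from 242 ± 104 to 51.2 ± 28.0 CPM (−2.24, SE 0.46, 0.0205). Itga9 was at 147 ± 7.81 and 179 ± 20.2 CPM (0.28, adjusted p 0.0578), and Itgb1, the most abundant of these genes, at 709 ± 19.2 and 702 ± 19.7 CPM (−0.01, SE 0.05, 0.857). The count was 0 without control replicate 1 or 3 or knockout replicate 4, and 1 without control replicate 4 or knockout replicate 1 or 2. Of all genes, 0.819% to 3.65% passed in those fits. The count of receptors and relatives was 5 without control replicate 2, 6 with DESeq2 and 7 with limma-voom, where 37.4%, 23.0% and 44.9% of all genes passed.

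Markers of other cells that make these genes were read in the same libraries. Leukocyte genes summed to 107 to 126 CPM in controls and 134 to 147 CPM in knockouts. Of 11 such genes, 9 were tested and 2 rose, where 6.61% of all genes rose and 8.27% fell. The 2 were Ptprc, from a mean of 20.2 to 38.5 CPM, and C1qa, from 19.0 to 27.8 CPM. Of the 9, 7 had positive log2 fold changes and 2 had negative ones, Csf1r (−0.40) and Lyz2 (−0.03). The T cell gene Cd3e had 0 counts in 4 libraries and at most 6. Genes of endothelium, another source of Vcam1, summed to 413 to 641 CPM in controls and 286 to 481 CPM in knockouts. All 6 had negative log2 fold changes, with a median of −0.44, and 1 of the 6 fell. Of 9 ureteric bud and collecting duct genes, 3 rose (Gata3, Ret and Hsd11b2) and 0 fell. Their log2 fold changes were positive for 4 of the 9 and negative for 5, with a median of −0.02. The sums were 1189 to 1824 CPM in controls and 1148 to 1618 CPM in knockouts. Red blood cell genes summed to 206 to 416 and 240 to 669 CPM, with 0 of 4 passing in edgeR (0 at an unadjusted p under 0.05, and 0 with DESeq2). Without control replicate 1, 3 or 4 or knockout replicate 1, 2 or 4, the endothelial count was 0. In the same 6 fits the collecting duct count was 0, except for 1 without control replicate 4, and the stroma count was 1, except for 2 without knockout replicate 1. The leukocyte count was 1 in 4 of them, 2 without knockout replicate 1 and 0 without knockout replicate 4. Of all genes, 0.819% to 3.65% passed in these 6 fits. Without control replicate 2 the endothelial, stroma and leukocyte counts were 5, 5 and 3, and without knockout replicate 3 the endothelial count was 4. In these 2 fits 37.4% and 17.0% of all genes passed. The part of these cells in the levels of the markers was not tested.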

How the data were processed

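Polyadenylated RNA of frozen kidney tissue was made into NEBNext Ultra libraries, per the labels' protocols. The deposited files hold raw counts as whole numbers for each Ensembl gene, with exon coordinates and lengths, without normalization, per the file headers. The submitters' processing notes name Trimmomatic 0.36, STAR 2.5.2b, featureCounts of Subread 1.5.2 and GRCm38. Strand and multi-mapping settings are not given in the sources used here. The deposited gene length column, another unit of bases per the file headers, served only for levels per kilobase. The table of the whole series and the tables per library differed in 0 cells, and 0 rows named no gene. Symbols came from GENCODE M21.

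The genotype test was the quasi-likelihood F test (edgeR 4.0.16, R 4.3.3; TMM scaling, filterByExpr defaults, no covariate), with Benjamini-Hochberg adjustment over 18485 genes. CPM uses TMM library sizes. SE values come from the fold change and F, and 95% intervals from SE and the test's degrees of freedom. Ratios were tested by exact permutation in SciPy 1.17.1. No pair of libraries agreed within sampling noise (chi-square per degree of freedom at least 11.0). The edgeR step was tested on simulated data. The markers and lists were chosen with earlier results of these data known. All 10 markers are named, and of each other pathway list up to 4 genes with the smallest p and the most abundant one, except 1 gene that is not reported here. Genes named from cell type lists are those that passed, were missing, made up a sum or, among leukocyte genes, had negative values. They were chosen after their values were seen. Alternatives were DESeq2 size factors, DESeq2 1.42.0, limma-voom of limma 3.58.1 with sample weights, other filters on low counts, the replicate block, covariates for Y-linked and adrenal transcripts, Y-positive libraries, the tables per library, and libraries left out.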

Additional observations from a re-analysis of the deposited data

Results flagged for a closer look

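Within each group of 4 libraries, 52 sets of values were searched for 1 library far from the other 3, which chance flags in about 1 of 20 groups, and 8 were found. Among the markers, Spp1 in knockout replicate 3 was at 127 CPM, far above the other knockouts. The same library was far above the other knockouts in the summed thick ascending limb genes (276 CPM), other keratins (384 CPM) and urothelium genes (217 CPM). Control replicate 2 was far below the other controls in the other keratins (247 CPM) and far above them in the gonad list (57.5 CPM), with germ cell genes. The adrenal list was far above the rest in control replicate 4 (108 CPM) and knockout replicate 1 (1956 CPM).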

How the results depend on the processing

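The count of all genes that passed was 2751 with edgeR, 4494 with DESeq2, 8302 with limma-voom, 999 with the adrenal covariate and 7903 without control 2 and knockout 3 together, and it ran from 153 to 7084 when 1 library was left out. Markers called higher numbered 1, but 2 with limma-voom or without control 2 and knockout 3 together, and 0 with no filter on low counts, the Y-linked covariate or the adrenal covariate. Markers called lower numbered 1, but 2 with limma-voom, 3 without control 2 and knockout 3 together, and 0 with the adrenal covariate or among libraries with Y-linked transcripts only. Leaving out 1 library gave 0 to 2 in each direction. In the other lists together, 30 genes passed, 50 with DESeq2, 71 with limma-voom, 50 with the replicate block, 19 with the adrenal covariate, 74 without control 2 and knockout 3 together, and 2 to 54 when 1 library was left out. The log2 difference in the Krt8 to Krt18 ratio ran from −0.54 to −0.33 when 1 library was left out. No p under 0.05 was possible there, since the smallest is 0.0571 for 4 against 3 libraries and 0.1 for 3 against 3. Reversed signs, all far from the threshold, were 0.16 and 0.02 for Vcam1 without knockout replicate 2 and control replicate 3, 0.02 and 0.094 for Clu without knockout replicate 2 and control replicate 4, and 9.7e-05 and 0.0022 for Itgb1 without control replicate 3 and knockout replicate 1. Leaving out 1 library gave −0.24 to 0.16 for Vcam1, −0.21 to 0.094 for Clu and −0.020 to 0.0022 for Itgb1. The cause of these changes was not tested, and each fit without a library had fewer samples. Same-numbered libraries did not pair (correlations of deviations −0.11, 0.33, 0.23 and −0.06). With the replicate block 3229 genes passed, Spp1 was at −2.80 (adjusted p 0.00815), Timp1 no longer passed (0.0828) and Sox9 did. Counts per library were 11 to 24 for Havcr1 and 152 to 322 for Timp1, so counting error adds to the spread of both.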
